A study of Mus musculus with 16 samples.

Results

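A set of 10 imprinted genes that lie outside the Kcnq1 domain was followed through 16 libraries made from mouse primordial germ cells (PGCs), which later give rise to eggs or sperm. They are Igf2, H19, Mest, Peg3, Grb10, Peg10, Snrpn, Dlk1, Meg3 and Plagl1, and they were chosen by symbol. All 10 were found among the 26219 genes listed. The libraries are 3′ RNA-seq, in which reads come from the poly(A) end of each transcript, and the levels are RPM, each gene's reads scaled to a common total of reads assigned to genes, not divided by gene length. Levels of different genes on this scale are therefore not compared with each other. The floxed and wild-type libraries were deposited as separate tables, and every test was made within 1 table.

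The first 8 libraries came from C57BL/6 embryos at E11.5 with floxed Prdm1. Both floxed groups carried Prdm1(flox/flox) and Rosa26(neo-EYFP/+), and the mothers of both had received 3 mg of 4-OHT per 25 g of body weight at E10.5. The 4 libraries labelled as conditional knockout (CKO) carried the Dppa3-MCMP(Tg/0) transgene as well, and the 4 control libraries did not. The other 8 libraries, called wild type here, came from Dppa3(EGFP/+) embryos on a mixed background of ICR and C57BL/6, with 2 libraries each at E10.5, E11.5, E13.5 male and E13.5 female. The protocol describes sorting on EYFP and on the surface antigen SSEA-1 without tying either sort to a group, and no label ties the libraries of a group to different animals. The p-values therefore reflect how far libraries differ, which may be technical. The 3′ reads of Prdm1 do not test its deletion, and the group with the transgene is called CKO-labelled below.

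An imprinted gene is transcribed mainly or only from the copy inherited from one parent, because DNA methylation set in the egg or sperm marks the parental copies differently. PGCs erase these marks as they migrate to and settle in the gonad, and later lay down new marks according to the sex of the embryo. Igf2, Mest, Peg3, Peg10, Snrpn, Dlk1 and Plagl1 are usually expressed from the paternal copy, and H19, Meg3 and, in most tissues, Grb10 from the maternal copy. Mesenchyme of the embryo expresses many of them strongly. RPM adds both parental copies together, so nothing here separates one allele from the other.

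On GRCm38, Igf2 (chr7:142650768-142666816) and H19 (chr7:142575530-142578146) lie in 1 cluster, and Dlk1 (chr12:109452485-109463336) and Meg3 (chr12:109540996-109571729) in another. Peg3 (chr7:6703892-6730462) and Snrpn (chr7:59982495-60450177) lie elsewhere on chromosome 7. Peg10 (chr6:4747306-4760517) and Mest (chr6:30733506-30748466) are on chromosome 6, Plagl1 (chr10:13090832-13131694) on chromosome 10 and Grb10 (chr11:11930499-12037428) on chromosome 11.

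Library depth was 2797625 to 5032358 reads in the floxed set and 1484856 to 4783293 reads in the wild-type set, estimated from the step between neighbouring low values. A floor of 3 reads corresponds to 0.596 to 1.07 RPM in the floxed libraries and to 0.627 to 2.02 RPM in the wild-type libraries. A list of 10 germ cell markers, Dppa3 and Pou5f1 among them, were present in all 16 libraries and summed to 3250 to 4020 RPM in the floxed and 4520 to 9720 RPM in the wild-type libraries. The mesenchymal collagen gene Col3a1, the measure of carry-over from surrounding tissue used here, ranged from 4.31 to 112 RPM in the floxed libraries. In the wild type it was 29.3 and 30.1 RPM at E10.5 and 0.673 to 3.17 RPM in the 6 later libraries. A sum of 15 mesenchymal markers ran from 12.7 to 72.4 RPM in the control, from 10.3 to 292 RPM in the CKO-labelled, from 70.4 to 75.2 RPM in the E10.5 and from 8.08 to 18.6 RPM in the later wild-type libraries. Macrophage markers, 6 of the 7 listed being in the tables, summed to at most 4.64 RPM in any library. In bulk libraries, fewer contributing cells and less RNA per cell cannot be told apart.

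Igf2, H19, Mest, Peg3, Grb10 and Meg3 were above the floor of 3 reads in all 16 libraries. Plagl1, which encodes a zinc finger transcription factor, fell under it in 1 library, control 3, at 0.219 RPM. Dlk1, a transmembrane relative of the Notch ligands, was under the floor in 9 of 16 libraries and never exceeded 7.51 RPM. Peg10, a gene derived from a retrotransposon and needed in the placenta, was under the floor in 14 of 16 libraries, was listed at 0 in 7 of them and never exceeded 1.42 RPM. Dlk1 and Peg10 passed the filter of neither table and were not tested.

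Snrpn needs separate treatment, because it shares its transcript with Snurf and the deposited values divide the reads between the 2 names. The Snrpn row was under the floor in 11 of 16 libraries and jumped to 21.6 RPM in E11.5 replicate 2 while E11.5 replicate 1 had 0.0297 RPM. Snurf held 152 RPM in the first of these libraries and 184 RPM in the other. Snurf was looked at after the Snrpn values had been seen, and the sum of the rows is reported as Snrpn+Snurf. That sum was 163 to 190 RPM in the control, 132 to 192 RPM in the CKO-labelled, 190 and 192 RPM in the E10.5, 174 and 184 RPM in the E11.5, 188 and 205 RPM in the male and 139 RPM in both female libraries. Other genes annotated within or across the members, among them Copg2 beside Mest, Peg3os beside Peg3 and Rtl1 beside Meg3, could share reads with them, since the sources used here do not state whether counting used strand.

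**Figure D1:**
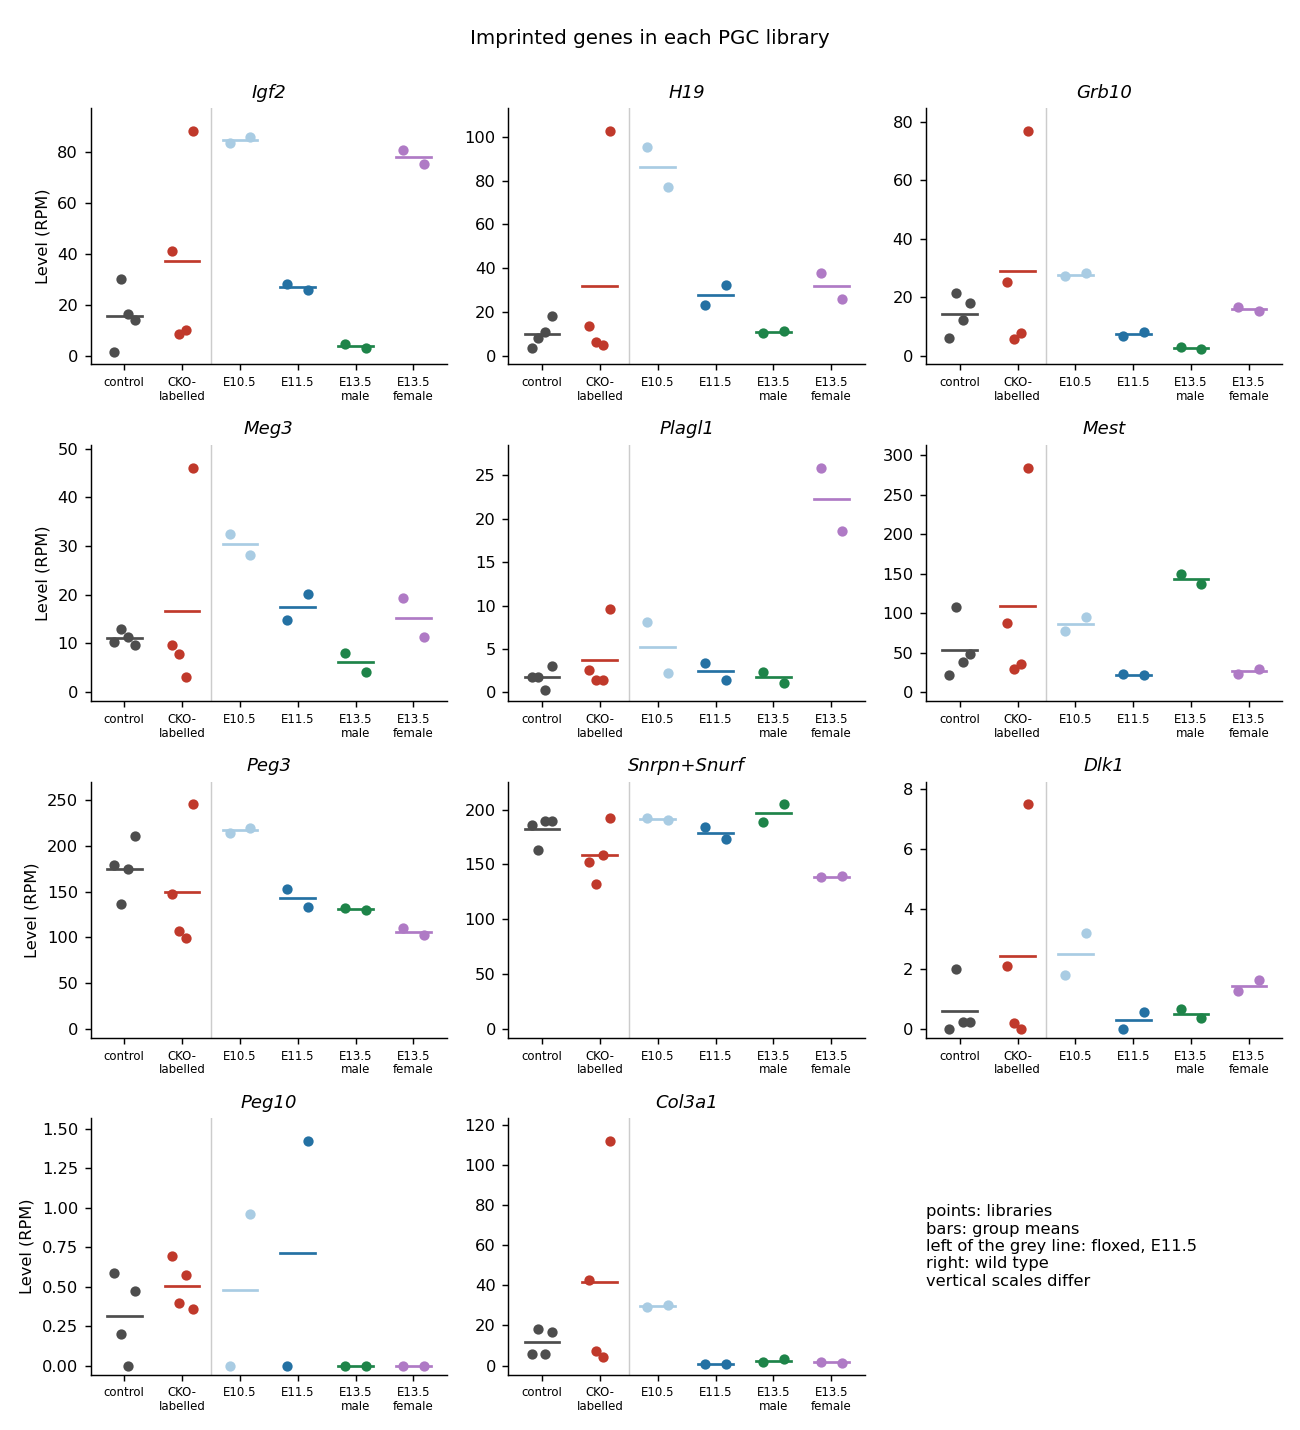
Level of each imprinted gene, and of Col3a1, in every library (points, RPM on linear axes that include 0) with group means as bars. At E13.5, Igf2 stood at 75.1 and 80.9 RPM in the female against 2.82 and 4.34 RPM in the male libraries, Mest showed the opposite order, and CKO-labelled replicate 4 was the highest floxed library for Igf2, H19, Mest, Peg3, Grb10, Meg3, Plagl1, Dlk1 and Col3a1.

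Most of the members tested differed between the sexes at E13.5, after the gonad has begun to form a testis or an ovary. Igf2, which encodes a fetal growth factor, and Plagl1 were high in the female libraries and low in the male ones, and Mest, which encodes a protein of the alpha/beta hydrolase fold, was the reverse. Of the 8 members tested, 5 were higher in the female (Igf2, Plagl1, Grb10, H19 and Meg3) and 2 were lower (Mest and Peg3), against 37.6% of the 10749 genes tested that were called in either direction, 21.2% of them higher and 16.4% lower. The members' median difference was 1.33 on the log2 scale, beside 0.0499 over all genes tested. All differences quoted below are in log2(RPM + 1) from limma with their standard errors. Adjusted p-values are Benjamini-Hochberg values over all genes tested, called under 0.05. In groups of 2 libraries, values that do not overlap arise often without any difference, so overlap is given as a description and not as a test.

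Igf2 measured 80.9 and 75.1 RPM in the female libraries and 4.34 and 2.82 RPM in the male libraries. The male values rested on 13 and 8 reads, so the size of the ratio below is imprecise. The groups were far apart, with means of 78.0 ± 4.10 (SD, n = 2) and 3.58 ± 1.08 RPM, a 21.8-fold ratio. The fitted difference was 4.13 ± 0.221 (limma adjusted p = 1.17e-14). Plagl1 measured 25.9 and 18.6 RPM in the female libraries and 2.34 and 1.06 RPM in the male, where it stood near the floor. Its groups did not overlap, and the difference was 3.13 ± 0.482 (limma adjusted p = 8.17e-06). Outside the female libraries Plagl1 reached the filter of 5 RPM only in E10.5 replicate 1, at 8.13 RPM. It was therefore tested because of the group where it is high, and its calls are not independent of the filter.

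Grb10, whose product is an adaptor that dampens insulin and IGF receptor signalling, measured 16.7 and 15.1 RPM in the female and 3.01 and 2.11 RPM in the male libraries. The groups were separate, with a 6.21-fold ratio of means and a difference of 2.26 ± 0.334 (limma adjusted p = 4.6e-06). The male values of Grb10 rested on 9 and 6 reads, so the size of its ratio is imprecise. H19, the noncoding RNA that neighbours Igf2, measured 37.6 and 26.0 RPM in the female and 10.4 and 11.3 RPM in the male. Its groups were separate too, with a difference of 1.45 ± 0.232 (limma adjusted p = 1.4e-05). Meg3, the noncoding RNA of the Dlk1 cluster, measured 19.2 and 11.2 RPM in the female and 8.02 and 4.23 RPM in the male, a narrower gap than for the others, with a difference of 1.20 ± 0.323 (limma adjusted p = 0.00427). The Meg3 call was lost without male replicate 2, at 0.80, and without female replicate 1, at 0.83.

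Mest measured 150 and 137 RPM in the male and 22.6 and 29.9 RPM in the female libraries. The male libraries were 5.47-fold higher in their means, and the difference, female minus male, was -2.42 ± 0.178 (limma adjusted p = 1.29e-11). Peg3, which encodes a large zinc finger protein, measured 133 and 130 RPM in the male and 110 and 103 RPM in the female. The gap was small, with a difference of -0.30 ± 0.119 (limma adjusted p = 0.0461), and over 20 alternative settings the Peg3 call was made in 11. It was lost without either E10.5 library and without any 1 of the 4 E13.5 libraries, where the difference ran from -0.35 to -0.25. Snrpn+Snurf, which passed the threshold as a sum, was 1.41-fold lower in the female means, with a difference of -0.50 ± 0.111 (limma adjusted p = 0.000751).

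**Figure D2:**
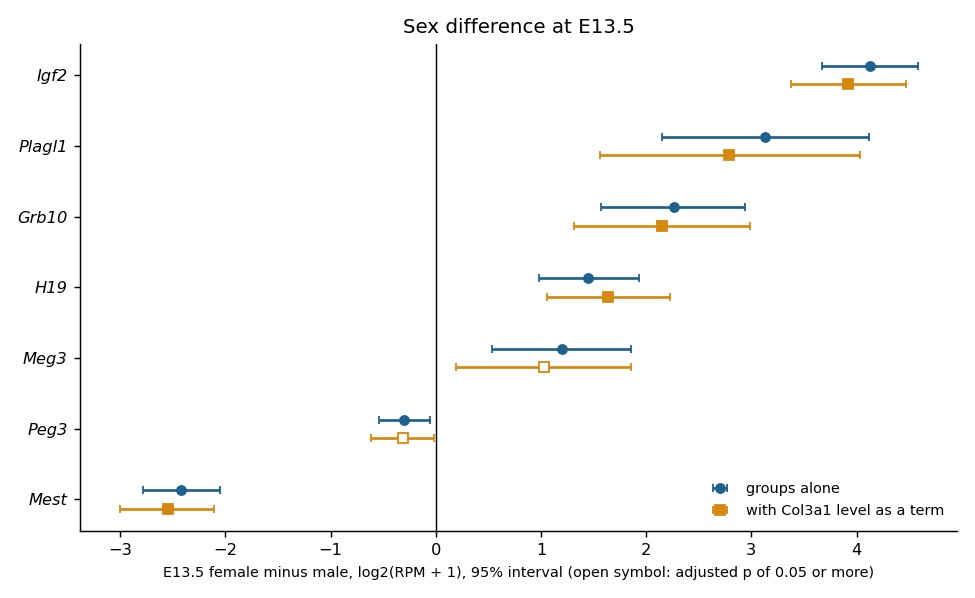
Difference between E13.5 female and male libraries for 7 imprinted genes (log2(RPM + 1), points with 95% intervals), from the groups alone and with the Col3a1 level of each library as a further term. Igf2 moved from 4.13 to 3.92 and Mest from -2.42 to -2.55 with that term, and Meg3 and Peg3 lost their calls (open squares). Col3a1 rested on 5 to 9 reads in these libraries, so the term does not measure carry-over.

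Col3a1 itself was 1.67 and 3.17 RPM in the male and 1.88 and 1.37 RPM in the female libraries, a difference of -0.35 ± 0.447 that did not pass the test (limma adjusted p = 0.569). With Col3a1 as a term in the fit, 27.4% of genes were called, 15.4% higher and 12.0% lower, and 5 members remained called. The difference was 3.92 for Igf2, 2.79 for Plagl1, 2.15 for Grb10, 1.64 for H19 and -2.55 for Mest. Meg3 at 1.03 (limma adjusted p = 0.0617) and Peg3 at -0.32 (limma adjusted p = 0.112) were then not called. Col3a1 rested on 5 and 9 reads in the male and on 9 and 5 reads in the female libraries. Its slope comes from differences between libraries of the same group, so calls kept or lost with it do not measure carry-over. The 15 mesenchymal markers summed to 9.69 and 14.8 RPM in the male and 16.3 and 18.6 RPM in the female. Of the 4 that could be tested, Col5a1 was called, at 2.67 and 4.23 RPM in the male and 9.62 and 8.22 RPM in the female. That call was lost without any 1 of these libraries (0.92 to 1.43). Col5a1 reached the filter of 5 RPM in the female libraries alone. Between 4 and 9 of the 15 were at 0 in each of these 4 libraries, Lum in every one.

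Other cell types' markers did differ between the sexes. A list of 8 erythroid markers summed to 31.2 and 37.6 RPM in the female and 5.01 and 7.04 RPM in the male, led by the embryonic globin Hbb-y at 12.5 and 17.5 RPM against 0.668 and 0.352 RPM, while the erythroid gene Gata1 was at 0 in all 4. A list of 9 markers of gonadal somatic cells summed to 13.7 and 19 RPM in the male and 2.30 and 2.74 RPM in the female, with Amh at 0 in all 4 and Dhh at 5.01 and 1.06 RPM in the male libraries only. A list of 7 endothelial markers summed to 115 to 123 RPM in the female and 58.5 to 60.1 RPM in the male, nearly all of it Pecam1, which PGCs also express. The part of these cells in the members' differences was not tested. Over the wild type, the erythroid sum was 227 and 247 RPM at E10.5, where Igf2 was 85.8 and 83.5 RPM. In the floxed controls the sum and Igf2 were 62.4 and 1.47 RPM in replicate 1 and 43.4 and 30.0 RPM in replicate 2. They were 6.79 and 16.4 RPM in control 3 and 3.06 and 13.9 RPM in control 4. In the CKO-labelled libraries they were 63.2 and 41.1 RPM in replicate 1 and 1.79 and 8.35 RPM in replicate 2. Replicate 3 of that group had 77.2 and 10.0 RPM, and replicate 4 had 35.0 and 88.3 RPM.

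The promoters of the 4 members with the largest sex differences are shown. CpG, printed CG here, is the dinucleotide that imprinting marks methylate, and each promoter shown holds more of it than the median promoter. Whether these promoters carry an imprinting mark, or take part in the sex differences, was not tested. Each is a window of 300 bases, from 250 before to 50 after a RefSeq transcript start on GRCm38.p6, printed 5′ to 3′ on the strand of the gene, with every CG in capitals. Where a gene had several starts, the window with the most CG is given. Reads at the 3′ end do not show which start was in use.
Igf2, chr7:142658755-142659054, minus strand: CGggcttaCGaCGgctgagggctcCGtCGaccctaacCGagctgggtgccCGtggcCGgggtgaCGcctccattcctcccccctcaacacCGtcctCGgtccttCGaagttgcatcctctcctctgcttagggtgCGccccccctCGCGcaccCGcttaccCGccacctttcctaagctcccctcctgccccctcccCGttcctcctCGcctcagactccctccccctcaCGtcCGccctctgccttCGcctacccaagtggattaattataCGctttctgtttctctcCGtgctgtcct
Plagl1, chr10:13090582-13090881, plus strand: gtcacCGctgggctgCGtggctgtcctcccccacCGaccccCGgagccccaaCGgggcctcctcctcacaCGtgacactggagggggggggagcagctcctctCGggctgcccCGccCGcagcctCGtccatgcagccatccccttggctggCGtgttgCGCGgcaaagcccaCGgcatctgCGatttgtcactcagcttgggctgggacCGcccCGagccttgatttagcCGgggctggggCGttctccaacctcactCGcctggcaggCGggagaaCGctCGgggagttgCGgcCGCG
Grb10, chr11:12037371-12037670, minus strand: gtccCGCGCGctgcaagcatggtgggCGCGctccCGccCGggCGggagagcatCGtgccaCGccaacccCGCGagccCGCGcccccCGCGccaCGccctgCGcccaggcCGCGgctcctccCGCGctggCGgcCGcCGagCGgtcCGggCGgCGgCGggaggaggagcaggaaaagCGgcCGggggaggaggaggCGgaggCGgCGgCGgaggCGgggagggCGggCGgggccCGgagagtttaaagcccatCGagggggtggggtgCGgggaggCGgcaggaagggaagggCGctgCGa
Mest, chr6:30737800-30738099, plus strand: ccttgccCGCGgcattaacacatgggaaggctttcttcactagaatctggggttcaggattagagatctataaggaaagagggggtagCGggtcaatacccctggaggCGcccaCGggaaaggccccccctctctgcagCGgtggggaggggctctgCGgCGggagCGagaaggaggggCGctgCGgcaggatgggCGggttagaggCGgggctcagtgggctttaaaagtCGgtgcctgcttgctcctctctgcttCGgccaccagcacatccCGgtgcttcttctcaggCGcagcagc

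The Grb10 window held 45 CG, a count reached by 1.93% of the 32851 promoter windows of the annotation. Plagl1 held 26, reached by 16.9% of windows, Igf2 24, reached by 20.0%, and Mest 17, reached by 31.4%. The median window of the annotation held 7. These are the richest windows of genes with several starts, set against all windows. The other 3 starts of Igf2 held 2, 7 and 14 CG, the other start of Grb10 held 9, reached by 45.8% of windows, and the other 2 of Mest held 17 and 8, the latter reached by 48.6%. Plagl1 had 1 window. RefSeq windows were matched for 8 of the 10 members, with none for H19 and Peg10. The sequence GGGGCCCC, of the kind bound by PLAGL1, was found on either strand in the Peg3 window and in none of the other 17 windows of members, and in 1.08% of all windows. AGNGAAAG, a part of the sequence bound by PRDM1, was in none of the 18 windows of members, against 8.63% of all windows, both strands searched.

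The E11.5 libraries carry no label of sex, so each sex at E13.5 was compared with the same E11.5 libraries. Against these the members differed in unlike ways in each sex. These fits for each sex were added after the data had been seen, because the mean of both sexes joins opposite movements. The 2 comparisons share the E11.5 libraries, so their values are given side by side. In the male, 1 member rose (Mest) and 4 fell (Igf2, H19, Grb10 and Meg3), where 38.2% of all genes tested were called, 22.3% higher and 15.9% lower. In the female, 3 rose (Igf2, Plagl1 and Grb10) and 2 fell (Peg3 and Snrpn), where 51.2% of genes were called, 31.2% higher and 20.0% lower. Markers of other cells moved as well. Of 5 erythroid markers tested, 2 fell in the male (Hbb-y and Hba-x) and 3 rose in the female (Hba-a2 by 1.92, Hbb-y by 1.79 and Hba-a1 by 1.53). Of 3 endothelial markers tested, 3 fell in the male (Tek, Esam and Pecam1) and 2 in the female (Tek and Esam). Of 4 mesenchymal markers Col5a1, which passed the filter through the female libraries alone, rose in the female by 1.90. The part of these other cells in the members' changes was not tested.

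Igf2 stood at 28.3 and 25.9 RPM at E11.5. It fell by 2.64 ± 0.221 to the male level (limma adjusted p = 1.82e-10) and rose by 1.49 ± 0.221 to the female level (limma adjusted p = 2.94e-06), so E11.5 lay between the sexes, with no overlap on either side. Its order over the wild type was E10.5, E13.5 female, E11.5 and E13.5 male, and the first 2 of these, at 83.5 and 85.8 against 75.1 and 80.9 RPM, were close neighbours that were not tested against each other. Grb10 had the same order of means, at 27.6 ± 0.770, 15.9 ± 1.17, 7.35 ± 0.875 and 2.56 ± 0.631 RPM (SD, n = 2). It changed by -1.24 ± 0.334 in the male (limma adjusted p = 0.00428) and by 1.02 ± 0.334 in the female (limma adjusted p = 0.0124). The female call for Grb10 was lost without E11.5 replicate 1 (0.91), female replicate 1 (0.95) or female replicate 2 (1.09).

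Plagl1 was low at E11.5, at 3.37 and 1.42 RPM, and stayed within overlapping values in the male, with a difference of -0.31 ± 0.482 (limma adjusted p = 0.645; 95% interval -1.30 to 0.68). It rose in the female, through whose libraries it passed the filter, by 2.82 ± 0.482 (limma adjusted p = 2.17e-05). Mest showed the mirror image. From 22.9 and 21.4 RPM at E11.5 it rose by 2.64 ± 0.178 in the male (limma adjusted p = 1.56e-12), a 6.48-fold ratio of means, and differed by 0.22 ± 0.178 in the female, whose libraries overlapped those at E11.5 (limma adjusted p = 0.305; 95% interval -0.14 to 0.59).

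H19 and Meg3 moved in the male. H19, at 22.9 and 32.2 RPM at E11.5, fell by 1.25 ± 0.232 (limma adjusted p = 9.43e-05) and Meg3, at 14.8 and 20.2 RPM, fell by 1.42 ± 0.323 (limma adjusted p = 0.000951). In the female both overlapped the E11.5 values, with differences of 0.20 ± 0.232 for H19 and -0.22 ± 0.323 for Meg3, neither called. Peg3 moved from 153 and 133 RPM by -0.12 ± 0.119 in the male, not called (limma adjusted p = 0.446), and fell in the female by 0.42 ± 0.119 (limma adjusted p = 0.0041), a call lost without E11.5 replicate 1 (-0.32) or female replicate 2 (-0.37). Snrpn+Snurf differed by 0.14 ± 0.111 in the male (limma adjusted p = 0.351) and fell by 0.36 ± 0.111 in the female (limma adjusted p = 0.00808). The call for the Snrpn row alone rests on the division of reads described above.

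With Col3a1 as a further term, 8.36% of genes were called in the male comparison, 4.03% higher and 4.34% lower, and 3 members kept their calls, Mest at 2.99, Igf2 at -2.10 and H19 at -1.75. Grb10 at -0.95 (limma adjusted p = 0.43) and Meg3 at -0.98 (limma adjusted p = 0.411) did not. In the female comparison 32.4% of genes were then called, 19.9% higher and 12.5% lower. Igf2 at 1.82 and Plagl1 at 3.37 kept their calls, Grb10 at 1.20 did not (limma adjusted p = 0.0712), and no member was called lower. Col3a1 rested on 1 and 3 reads at E11.5 and on 5 to 9 reads at E13.5. Calls kept or lost with this term therefore do not measure carry-over.

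Both changes are taken from the same 2 libraries at E11.5, which carry no label of sex. The test of female against male at E13.5 is therefore also the test of whether these changes differ. By that test, which called 37.6% of all genes tested, the changes of Igf2, Plagl1, Grb10, H19, Meg3, Mest and Peg3 differed. The mean of both sexes against E11.5, the comparison as the design first gives it, called 2 members higher (Mest and Plagl1) and 4 lower (Igf2, H19, Meg3 and Peg3), where 47.9% of genes were called, 29.0% higher and 18.8% lower. For Igf2 that mean was -0.57 (limma adjusted p = 0.0153), a fall that neither sex shows at this size and that has the opposite sign of the female change. With Col3a1 as a term, resting on the few reads given above, 16.3% of genes were called, 9.33% higher and 7.00% lower. In that fit 1 member was higher (Mest) and none of the 4 falls of the mean was called.

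**Figure D3:**
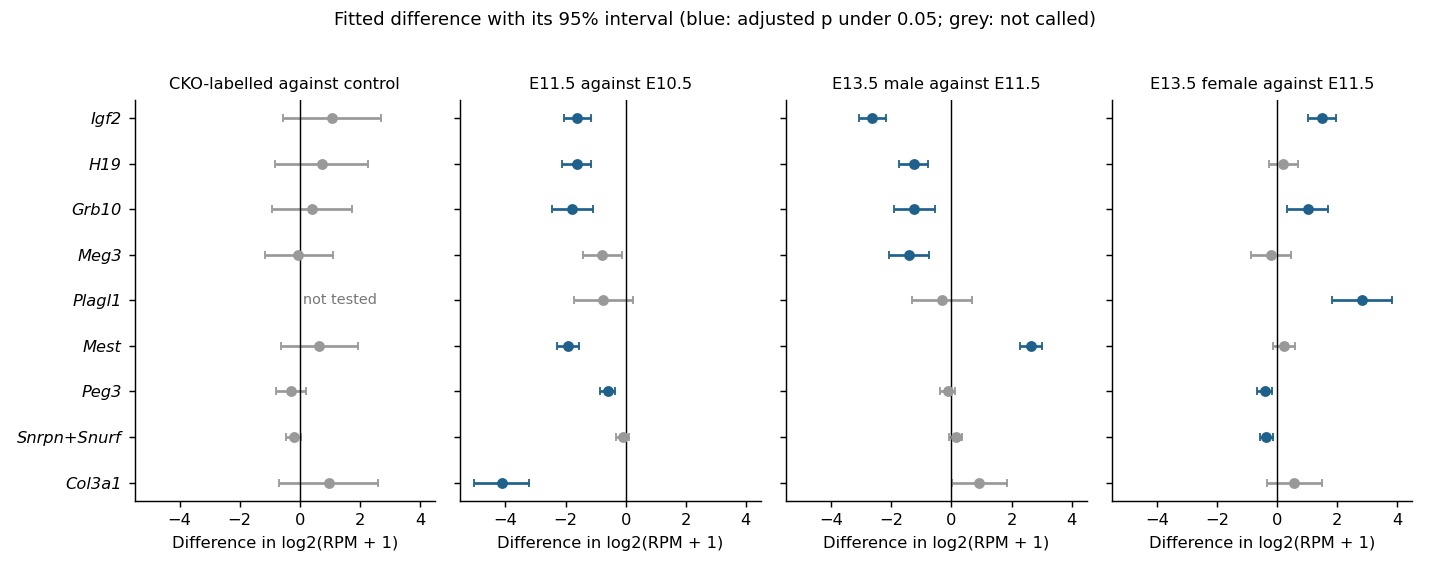
Fitted differences of 8 imprinted genes and Col3a1 in 4 comparisons, in log2(RPM + 1) with 95% intervals; blue marks an adjusted p under 0.05 and grey no call. Igf2 fell from E10.5 to E11.5 and again to the E13.5 male, rose to the E13.5 female, and none of the plotted genes was called between CKO-labelled and control.

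Between E10.5 and E11.5, 5 of the 8 members tested fell (Mest, Grb10, H19, Igf2 and Peg3) and none rose, where 4.28% of the 10749 genes were called, 1.97% lower and 2.31% higher. The members' median difference was -1.49, beside 0.0179 over all genes tested. Col3a1 fell with them, by 4.12 ± 0.447 (limma adjusted p = 4.83e-07), as did Col1a1, the other of 2 called among 4 mesenchymal markers tested, though not without E10.5 replicate 1 (-2.48), E10.5 replicate 2 (-1.95) or E11.5 replicate 1 (-1.87). All 5 erythroid markers tested fell, and the 8 on that list summed to 227 and 247 RPM at E10.5 and 6.26 and 16.8 RPM at E11.5. Of the erythroid markers Hba-x and Hbb-bh1, and of the mesenchymal ones Col3a1, Col1a1 and Nr2f2, reached the filter of 5 RPM only at E10.5. These counts of markers were therefore weighted towards falls by the filter. The part of mesenchymal and erythroid cells in the members' fall was not tested.

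Mest went from 77.6 and 95.7 RPM to 22.9 and 21.4 RPM, and fell by 1.92 ± 0.178 (limma adjusted p = 3.55e-08). Igf2 went from 83.5 and 85.8 RPM to 28.3 and 25.9 RPM, a fall of 1.61 ± 0.221 (limma adjusted p = 2.73e-05). H19 went from 95.7 and 77.2 RPM to 22.9 and 32.2 RPM, a fall of 1.63 ± 0.232 (limma adjusted p = 4.73e-05). In each of these genes both E10.5 libraries lay far above both E11.5 libraries. Grb10 fell by 1.78 ± 0.334 (limma adjusted p = 0.00163), from 27.1 and 28.2 to 6.73 and 7.97 RPM. Peg3 fell least, by 0.60 ± 0.119 (limma adjusted p = 0.00287), from 214 and 220 to 153 and 133 RPM, and its call was lost without E10.5 replicate 1 (-0.62) or replicate 2 (-0.58), where 105 and 167 genes were called in all.

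Meg3, at 32.5 and 28.2 RPM at E10.5 and 14.8 and 20.2 RPM at E11.5, had groups that did not overlap but missed the threshold at -0.77 ± 0.323 (limma adjusted p = 0.177). Plagl1, at 8.13 and 2.24 RPM and then 3.37 and 1.42 RPM, overlapped (limma adjusted p = 0.425). Snrpn+Snurf differed by -0.10 ± 0.111, with a 95% interval of -0.33 to 0.13. Col3a1 nearly repeats the division into E10.5 and E11.5, so its level and the stage cannot be told apart in a fit: with Col3a1 as a term, limma called 0 members and 0.0186% of genes, all higher. At E11.5 Col3a1 rested on 1 and 3 reads, not above the floor of 3 reads, so no ratio of a member to it is given for that stage. At E10.5 the ratio of Igf2 to Col3a1 was 2.85 in both libraries and that of Mest was 2.65 and 3.18.

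**Figure D4:**
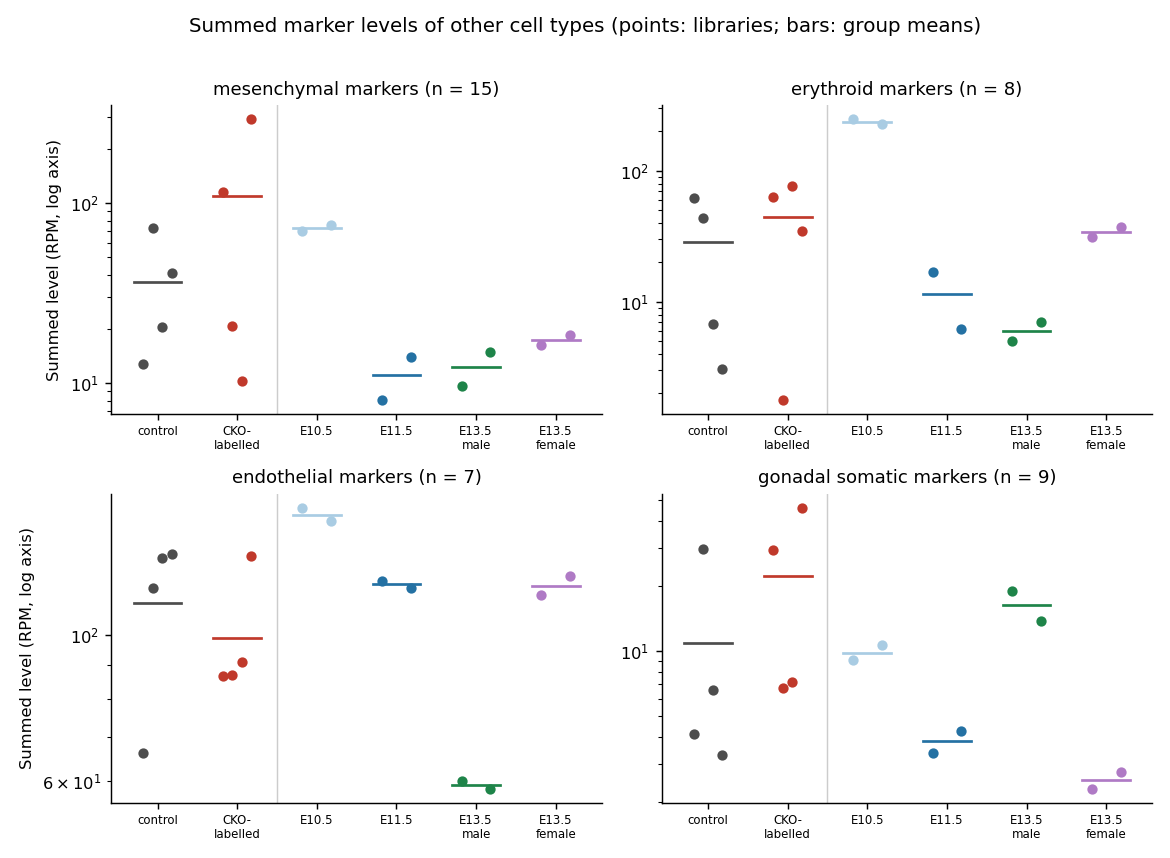
Summed levels of marker genes of 4 other cell types in every library (points, RPM on log axes) with group means as bars. Mesenchymal and erythroid sums were higher at E10.5 than at E11.5, the floxed libraries spread from 10.3 to 292 RPM in the mesenchymal sum, and the gonadal somatic sum was higher in the male than in the female at E13.5.

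The floxed libraries address whether these genes differ at E11.5 between the groups labelled as conditional knockout and control for Prdm1, which encodes a transcriptional repressor required to specify PGCs. Prdm1 itself measured 66.2, 50.7, 63.0 and 73.0 RPM in the controls and 79.9, 84.1, 76.6 and 89.4 RPM in the CKO-labelled libraries. Every CKO-labelled library was thus above every control. Of the 10 members 6 were tested, and limma called 0 of them, with 0 at an unadjusted p under 0.05, where 2.43% of 9384 genes were called (1.93% higher, 0.501% lower). Without CKO-labelled replicate 2 the number of genes called fell from 228 to 137. Limma voom on reads recovered from the value steps likewise called 0 of the members. The members' median difference was 0.53, beside -0.015 over all genes tested, with libraries of both groups spread widely.

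Igf2 measured 1.47, 30.0, 16.4 and 13.9 RPM in control replicates 1 to 4 and 41.1, 8.35, 10.0 and 88.3 RPM in CKO-labelled replicates 1 to 4. The groups overlapped, 2 CKO-labelled libraries were below 3 of the controls, and the difference of 1.07 ± 0.760 was not called (limma adjusted p = 0.656; 95% interval -0.57 to 2.71). Mest measured 21.2, 108, 38.3 and 48.3 RPM in the controls and 88.2, 30.0, 35.3 and 285 RPM in the CKO-labelled libraries, again with overlap (0.65 ± 0.597). H19 measured 3.24, 7.96, 10.7 and 18.1 RPM in the controls and 13.47, 6.16, 4.88 and 103 RPM in the CKO-labelled libraries (0.72 ± 0.724), of which only replicate 4 exceeded the controls.

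Grb10 measured 5.89, 21.3, 12.0 and 17.9 RPM in the controls and 25.1, 5.56, 7.75 and 76.9 RPM in the CKO-labelled libraries, with a difference of 0.41 ± 0.620. Meg3 measured 10.3, 12.9, 11.4 and 9.66 RPM and then 9.75, 7.75, 3.16 and 46.1 RPM, with a difference of -0.04 ± 0.524. In Meg3, CKO-labelled replicate 1 lay within the control range, replicates 2 and 3 below it and replicate 4 far above it. Peg3 measured 180, 136, 175 and 210 RPM in the controls and 147, 108, 99.0 and 246 RPM in the CKO-labelled libraries, with a difference of -0.30 ± 0.231 (limma adjusted p = 0.687).

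CKO-labelled replicate 4 also had the highest Col3a1 level, 112 RPM, and the highest mesenchymal sum, 292 RPM, with none of the 15 markers at 0, and CKO-labelled replicate 1 followed with 42.5 and 115 RPM. Replicate 4 had the highest gonadal somatic sum too, 45.8 RPM. Of the 7 endothelial markers, Kdr at 16.8, Tie1 at 17.2 and Emcn at 13.2 RPM did not exceed 4.88 RPM in any other floxed library. Tek was also highest in it, at 21.1 RPM. Esam, at 10.0 RPM, was below control 4 at 12.5 RPM, Pecam1, at 53.6 RPM, was near the lowest floxed value, and Cdh5 was at 0. The endothelial sum did not set replicate 4 apart, at 132 RPM beside 133 RPM in control 4. The 10 germ cell markers did not move together there. Dazl, Ddx4, Mael and Dnd1 had their lowest floxed values in it, at 67.2, 143, 26.1 and 105 RPM. Pou5f1 and Prdm1 had their highest, at 829 and 89.4 RPM. Their list summed to 3380 RPM in it, within the floxed range of 3250 to 4020 RPM. Most of that sum was Dppa3, at 1720 RPM, and Pou5f1, so it says little of the other markers. Between the groups, Kit alone of the 10 was called, lower in the CKO-labelled libraries (-0.42 ± 0.0968, limma adjusted p = 0.036). That call was made in 8 of 20 alternative settings. The part of other cells in the members' levels was not tested. Without replicate 4 the difference became -0.18 for H19, -0.0026 for Mest, -0.29 for Grb10 and -0.72 for Meg3, and Igf2 kept 0.46. The Peg3 difference was then -0.57 ± 0.161 and the Meg3 difference had an unadjusted p of 0.0347, but neither was called (limma adjusted p = 0.122 for Peg3 and 0.387 for Meg3). Without replicate 4 and control 1, the library with the lowest Igf2, a pair chosen after the values had been seen, Igf2 stood at -0.30 and H19 at -0.57. With Col3a1 as a term, where 1.91% of genes were called (1.55% higher, 0.362% lower), no member was called and the Igf2 difference was 0.29.

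The other 4 members were below the filter in the floxed set and were not tested. Plagl1 measured 1.77, 1.79, 0.219 and 3.06 RPM in the controls and 2.55, 1.39, 1.44 and 9.65 RPM in the CKO-labelled libraries. Dlk1 measured 0, 1.99, 0.219 and 0.236 RPM and then 2.09, 0.199, 0 and 7.51 RPM, so its highest value too was in CKO-labelled replicate 4. Peg10 did not exceed 0.697 RPM in any floxed library. Snrpn+Snurf differed by -0.21 ± 0.115 (limma adjusted p = 0.532), with group means of 182 ± 12.7 and 159 ± 25.1 RPM (SD, n = 4).

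**Figure D5:**
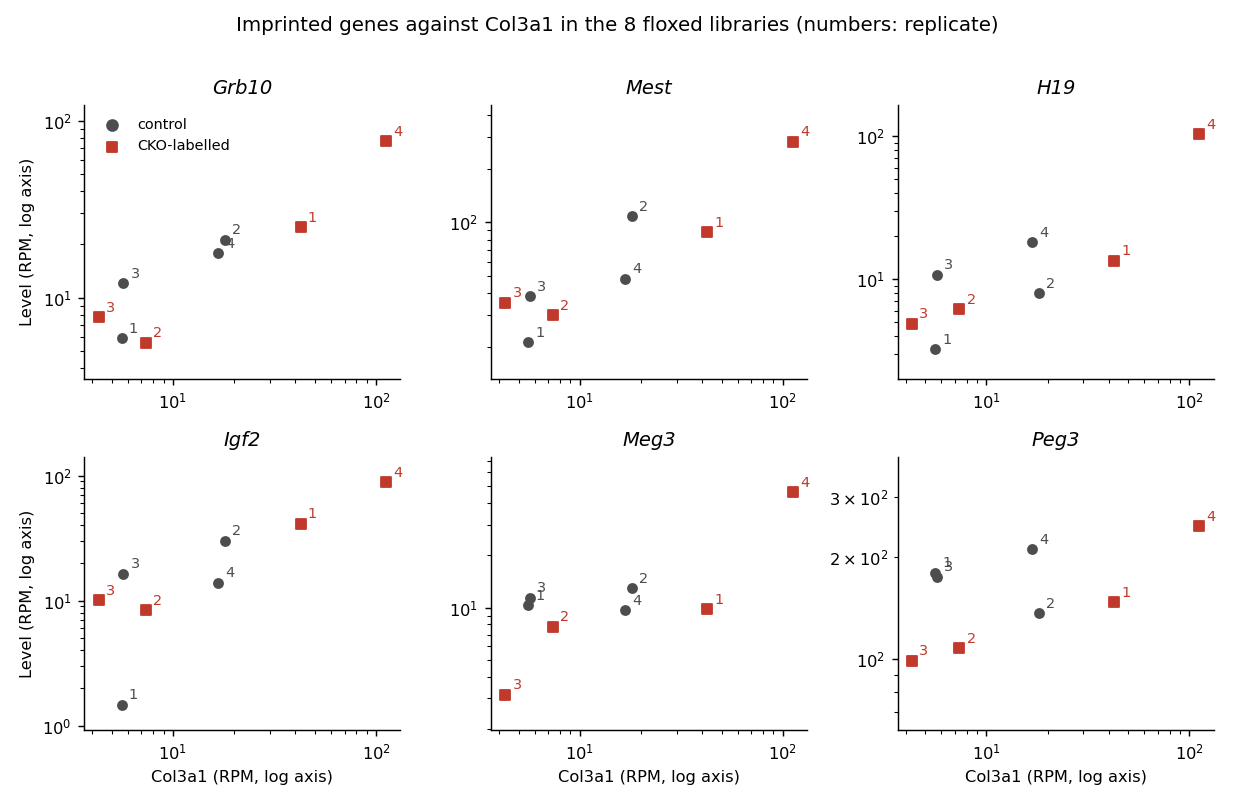
The 6 imprinted genes tested against Col3a1 in the 8 floxed libraries (both axes in RPM and logarithmic; circles are control, squares CKO-labelled, numbers are replicates). CKO-labelled replicate 4, at 112 RPM of Col3a1, is the upper right point in all 6 panels, and Peg3 follows Col3a1 least.

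Across the 8 floxed libraries, Grb10 followed Col3a1 with a Pearson r of 0.939 and a Spearman rho of 0.833 on log2(RPM + 1), and Mest with 0.923 and 0.857. H19 followed with 0.873 and 0.810, Igf2 with 0.837 and 0.833, Meg3 with 0.790 and 0.571, and Peg3 with 0.574 and 0.452. Over all 9383 genes tested the median r was 0.0882, and 2.61% had an r above 0.8, among them Grb10, Mest, H19 and Igf2. By a two-sided exact permutation test over 40320 pairings, adjusted over all 9383 genes, 0 genes were called for r and 0 for rho. The smallest adjusted p of any gene was 0.116 by the exact permutation test, and the members' ran from 0.302 to 0.753. At an unadjusted exact permutation p under 0.05 stood 7.87% of genes, with raw p-values of 0.00104 for Grb10, 0.00246 for Mest, 0.00635 for H19, 0.00833 for Igf2, 0.0156 for Meg3 and 0.142 for Peg3.

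Without CKO-labelled replicates 4 and 1, the 2 libraries farthest from the median of Col3a1, r was 0.808 for Grb10, 0.777 for Mest, 0.635 for H19, 0.568 for Igf2, 0.568 for Meg3 and 0.372 for Peg3 over the remaining 6. In these 6 libraries Grb10 and Mest stayed closest to Col3a1. No pooled r is given for the wild type, whose libraries fall into stages. Beside Col3a1, the wild-type levels at E13.5 were as follows. Igf2 stood at 75.1 and 80.9 RPM beside Col3a1 at 1.37 and 1.88 RPM in the female libraries, which also had the 2 highest Plagl1 values of the wild type, 18.6 and 25.9 RPM. Mest stood at 150 and 137 RPM beside Col3a1 at 1.67 and 3.17 RPM in the male.

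A list of 45 other imprinted genes gave a point of reference. Between the sexes at E13.5, 4 of the 25 that could be tested were higher in the female and 2 lower, beside 5 and 2 of 8 members. Of all genes tested, 21.2% were called higher and 16.4% lower. Slc38a4, an amino acid transporter expressed from the paternal copy, was higher in the female by 2.31 ± 0.162, Gnas, which encodes a G protein subunit, by 1.43 ± 0.128, and Igf2r, whose product clears IGF2 from the cell surface, by 1.21 ± 0.137. Usp29, which neighbours Peg3 and encodes a ubiquitin protease, had a difference of -1.57 ± 0.439, at 19.3 ± 5.82 RPM in the male against 5.67 ± 0.263 RPM in the female (SD, n = 2), and was not called without male replicate 1 (-1.28) or female replicate 2 (-1.53). From E10.5 to E11.5, where 1.97% of genes were called lower and 2.31% higher, 3 of 25 fell (Gnas, Asb4 and Zdbf2) and none rose. Of these, Gnas was not called without E10.5 replicate 2 (-0.59), Asb4 without E11.5 replicate 1 (-0.83) or either E10.5 library, and Zdbf2 without any 1 of 7 libraries. Between CKO-labelled and control libraries, 0 of 20 were called by limma, with 2 at an unadjusted p under 0.05. Of all 9384 genes tested there, 2.43% were called.

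Of 12 genes of the insulin-like growth factor system other than Igf2 itself, 10 were tested in the wild type. Igfbp2, which encodes a secreted IGF binding protein, followed Igf2 between the sexes, with 14.9 ± 4.04 RPM in the female and 2.08 ± 1.05 RPM in the male (SD, n = 2), a difference of 2.39 ± 0.336 (limma adjusted p = 2.1e-06). Igf1r, the receptor through which IGF2 signals, rose from 3.82 ± 0.639 RPM at E11.5 by 2.68 in the male and 2.28 in the female, where it stood at 29.9 ± 2.09 and 22.6 ± 4.76 RPM. Igf2bp3, an RNA-binding protein named for its binding to the Igf2 transcript, was the 1 of 9 tested in the floxed set that was called, at 72.9 ± 10.2 RPM in the control and 145 ± 18.5 RPM in the CKO-labelled libraries (0.98 ± 0.125, limma adjusted p = 0.000529). Its groups did not overlap and the call held in all 20 alternative settings. Of all 9384 genes tested in the floxed set, 2.43% were called.

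Among 16 factors that set, keep or remove imprints, 10 were tested in the floxed set, 2 were higher in the CKO-labelled libraries and 1 lower. Of all genes tested there, 1.93% were called higher and 0.501% lower. Dnmt3a, the DNA methyltransferase that writes new marks, stood at 61.3 ± 11.1 RPM against 28.1 ± 2.83 RPM in the control (1.09 ± 0.146, limma adjusted p = 0.00079) and held its call in all 20 alternative settings. Uhrf1, which brings the maintenance methyltransferase to replicating DNA, was 13.2 ± 5.64 against 4.48 ± 1.19 RPM (limma adjusted p = 0.0215; called in 14 of 19 settings, and not without control 3, CKO-labelled 2 or CKO-labelled 4, at 1.26, 1.35 and 1.08), and Smchd1, a chromatin protein of the inactive X and of some imprinted clusters, differed by -0.45 ± 0.111 (limma adjusted p = 0.0497; called in 6 of 20). Between the sexes at E13.5, 2 of 12 were higher in the female and 4 lower, beside 21.2% and 16.4% of all genes tested. Dppa3, which protects imprints in the early embryo and whose locus carries the EGFP reporter in these mice, differed by -1.34 ± 0.0725, Tet1, a dioxygenase that oxidises methylcytosine, by -0.83 ± 0.151, and Dnmt1, the maintenance methyltransferase, by 0.49 ± 0.108.

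The genes whose log2(RPM + 1) most resembled a member over the 8 wild-type libraries are given by Pearson r for Igf2, Grb10 and Plagl1, as a description of libraries that share stages and sexes. For Igf2 these were Psat1, Scd1 and Alas1, with r from 0.987 to 0.992, and among the members Grb10 came closest at 0.961, rank 37 of 10748, and H19 followed at 0.860. For Grb10 they were Ngfrap1, Ins2 and Mtpn, with Igf2 at rank 13. For Plagl1 they were Med13, Necab2 and Ide, at 0.963 to 0.989, and Igf2 came only at rank 1558 with 0.662. The r of Mest with Igf2 was -0.531. In the floxed libraries the order was another: Igf2 and Mest had an r of 0.929 there, and Grb10 and Mest 0.965.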

How the data were processed

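RNA of sorted PGCs was sequenced from its 3′ ends in 16 libraries, made with 11 PCR cycles per the labels' protocols. The authors deposited 2 tables of RPM, reads scaled to a common library total of reads assigned to genes, for 26219 genes, with 92 spike-in rows on top in the wild-type table. The submitters' processing notes list cutadapt 1.3, TopHat 1.4.1, Cufflinks 2.2.0 and mm10, with no role or order. Whether counting used strand is not given in the sources used here. Relative depth came from the steps of the low values, 99.6 to 99.8% of which were whole multiples within 0.05 reads. Floors of 3 reads cover counting error only.

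Tests used limma 3.58.1 in R 4.3.3 on the log2 of the deposited RPM plus 1 (eBayes with a variance trend, Benjamini-Hochberg adjustment over all genes tested, threshold 0.05), which understates the change of low genes. A gene was tested if it reached 5 RPM in at least 4 libraries of the floxed table or 2 of the wild-type table, and each table had 1 fit over all its groups. Its code was checked on simulated data. Python 3.11.15 with pandas 2.3.3, numpy 2.4.6, scipy 1.17.1 and matplotlib 3.10.9 served for correlations, promoter windows (RefSeq, GRCm38.p6) and figures. Intervals are at 95%.

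All 10 members were named in every library, with Col3a1 and the mesenchymal sum, up to 4 called genes of smallest p from each other list (marker genes of other cell types, other imprinted genes, imprint control factors, insulin-like growth factor genes), and the 3 most similar genes, which are given for Igf2, Grb10 and Plagl1 in the wild type (those of the other members are not reported here). Other genes named were chosen after their values were seen. The members and lists were chosen with earlier results of these data known. Alternatives covered pseudocounts of 0.1 and 10, the filter, scaling, the variance trend, the replicate block, a Col3a1 term, each library left out, only the groups compared and, added after seeing the data, voom on recovered reads, CKO-labelled replicate 4 with control 1 left out, Snrpn summed with Snurf, and each sex at E13.5 against E11.5.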

Additional observations from a re-analysis of the deposited data

Results flagged for a closer look

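In groups of 4, 6 of 22 tested held a library whose gap to its neighbour exceeded the Dixon limit as a share of the range. The rate of 1 in 20 for that limit holds for normal and independent values. Raw RPM of several genes in the same libraries are neither, so no excess over chance is read from the count. CKO-labelled replicate 4 was the high library for H19 at 102.9 RPM, for Meg3 at 46.1 RPM and for Plagl1 at 9.65 RPM. Among the controls, Snrpn, whose reads are divided with Snurf, had a high library at 7.36 RPM. Replicate 2 was high for Dlk1 at 1.99 RPM, on 10 reads, and low for Snrpn+Snurf at 163 RPM.

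The change from the shared E11.5 libraries to E13.5 differed between the sexes, by the limma test of female minus male, for 7 members. That test called 37.6% of the 10749 genes tested. The difference in log2(RPM + 1) was 4.13 for Igf2, 3.13 for Plagl1, 2.26 for Grb10, 1.45 for H19, 1.20 for Meg3, -0.30 for Peg3 and -2.42 for Mest.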

How the results depend on the processing

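Of 3525 recomputed values for 181 results, 3181 kept their direction and their side of the threshold and 42 changed sign. Across all alternatives in which they could be tested, the calls for Igf2, Plagl1, Grb10, H19 and Mest between the sexes held. Between CKO-labelled and control no member was called under any alternative; genes called fell to 139 with a filter at 20 RPM. Signs there turned without CKO-labelled replicate 4 and control 1 (Igf2 -0.30, H19 -0.57, Mest -0.36, Grb10 -0.62, Col3a1 -0.078), with a Col3a1 term (H19 -0.062, Mest -0.045, Grb10 -0.33) and with a pseudocount of 10 (Meg3 0.10). With single libraries left out the ranges were 137 to 204 genes called, -0.18 to 1.20 for H19, -0.0026 to 1.06 for Mest, -0.29 to 0.90 for Grb10 and -0.72 to 0.45 for Meg3.

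For E11.5 against E10.5, genes called were 80 with no filter, 27 with no variance trend (members lower 3), 79 from only the groups compared and 2 with a Col3a1 term (members lower 0), which also turned H19 to 0.58, Snurf to 0.55, Col1a1 to 1.16, Hba-a1 to 1.00 and Ddx4 to -0.25. With single libraries left out, 105 to 486 genes and 4 to 6 members lower were called, Snrpn ran from -3.60 to 0.86, Plagl1 from -1.49 to 0.0055 and Snurf from -0.24 to 0.032. For the E13.5 mean against E11.5, members higher were 1 with a pseudocount of 0.1, no filter, a filter at 20 RPM, no trend or a Col3a1 term, and members lower were 2 with no filter, 1 with no trend and 0 with a Col3a1 term, which called 1755 genes. Grb10 turned to 0.056 (pseudocount 10) and 0.12 (Col3a1 term), Snrpn to 0.74 (Col3a1 term) and Snurf to 0.0014 (voom). With single libraries left out, members higher ran from 1 to 2, members lower from 0 to 4, Snrpn from -3.65 to 0.81 and Snurf from -0.17 to 0.10.

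Between the sexes, members lower were 1 with no filter, no trend or a Col3a1 term, and with single libraries left out 4 to 5 members were higher and 1 to 3 lower. For the male against E11.5, a Col3a1 term left 2 members lower and 899 genes called, with Snrpn at 2.10 and Plagl1 at 0.58, and Snrpn summed with Snurf was 0.14; single libraries gave Snrpn -2.80 to 1.66 and Plagl1 -0.74 to 0.11. For the female against E11.5, members lower were 1 with a pseudocount of 0.1, no filter, a filter at 20 RPM, no trend or only the groups compared, and 0 with a Col3a1 term, which called 3478 genes, with H19 at -0.11 and Meg3 at 0.052; single libraries gave 0 to 2 members lower, 2 to 3 members higher, H19 -0.058 to 0.46 and Meg3 -0.58 to 0.14. A Col3a1 term takes up a degree of freedom and, between E10.5 and E11.5, nearly repeats the stage. In the later wild-type libraries Col3a1 rests on 1 to 9 reads. The cause of the other changes was not tested.

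In the floxed set, r of the deviations was 0.02 to 0.25 for same-numbered libraries and -0.23 to 0.18 for differently numbered ones. Whether the numbers mark a pair or a shared batch was not settled by these values. The main fit, with 228 genes called in the floxed set, had no block. With the replicate number as a block, 314, 559, 5167 and 4099 genes were called in the 4 comparisons of the design, with the same numbers of members. Depth limits the values under the floor of 3 reads, which were 14 of 16 for Peg10, 11 of 16 for the Snrpn row, 9 of 16 for Dlk1 and 1 of 16 for Plagl1.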

Other observations

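Slc38a4, an amino acid transporter gene, stood apart among the other imprinted genes. It was 88.2 and 98.5 RPM at E11.5, 12.7 and 13.7 RPM in the E13.5 male and 67.3 and 71.3 RPM in the E13.5 female libraries, so the male fell far below the E11.5 level while the female stayed nearer to it. In the floxed set it was 108 ± 18.9 RPM in the control and 114 ± 5.16 RPM in the CKO-labelled libraries (SD, n = 4).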
